A study of Drosophila melanogaster with 9 samples.

Results

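Chromatin accessibility was examined at coding exons away from promoters in Drosophila melanogaster ovarian material. The overlapping peaks of 9 ATAC-seq libraries were merged into 75937 regions, of which 39910 held a peak in at least 2 libraries. A region was kept when its strongest summit, the point with the largest −log10 q in any library, lay in annotated coding sequence more than 1000 bases from every transcription start site (TSS). This left 5168 coding-exon regions. The other regions in at least 2 libraries comprised 20792 promoter regions, with a summit within 1 kb of a TSS, 9097 distal intron and 4114 distal intergenic regions, 490 in 3′ UTRs, 138 in 5′ UTRs and 111 in noncoding exons.

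ATAC-seq marks open chromatin by the insertion of sequencing adapters by a transposase. The 4 OSC libraries came from cultured ovarian somatic cells (OSCs), which derive from follicle cells and hold no germ cells, and comprised 2 libraries of wild-type cells and 2 of cells that carry a deletion of l(3)mbt (Δl(3)mbt), which encodes a chromatin protein that silences germline genes in somatic cells. The 5 ovary libraries came from intact ovaries, which hold germ cells and several kinds of somatic cell, so that fewer cells with an open site and a less open site cannot be told apart. Of these, 2 were prepared from 6 ovaries each of w1118 flies, and 3 from flies of the vas-GFP strain, w[*]; TI{TI}vas[AID:EGFP], with 6, 10 and 30 ovaries for replicates 1, 2 and 3. The ovaries of a library were pooled, their tagmentation time was varied, and the age of the flies was not given in the sources used here. The study calls its ATAC-seq replicates distinct samples without saying whether these were separate cultures or dissections, so a p-value measures the spread between these libraries. The material was checked at promoters. AGO3, aub, rhi, osk and vas, genes of the germline, each had a promoter peak in 5 of 5 ovary libraries and in 0, 3, 3, 1 and 4 of the 4 OSC libraries. The somatic genes tj, fs(1)Yb, Fas3 and zfh1 had one in all 9 libraries. The deletion of l(3)mbt itself cannot be checked from peak lists.

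Most accessible sites of the fly genome lie at promoters and in introns or intergenic enhancers, where transcription factors displace nucleosomes. Coding exons are mostly wrapped in nucleosomes, yet some also hold enhancers, promoters of unannotated transcripts or sites at which a factor binds within the reading frame. Coding sequence is richer in G and C than the introns and intergenic sequence around it. The sequence of a coding exon serves the protein first, so that a regulatory motif there shares its bases with codons.

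Sequences are shown for 3 kinds of coding-exon region, from the RefSeq release 6 genome (dm6), plus strand, 5′ to 3′. The first set shows the regions with a peak in all 9 libraries that contain CCGTTA, the Ovo motif of the study, within 100 bases of the summit, with the motif or its reverse complement TAACGG in capitals. They lie in su(w[a]) at chrX:1041455-1041655, klar at chr3L:506152-506352, CG42514 at chr3L:16493782-16493982 and Wdr62 at chr2L:1913465-1913665. A match is a description of the letters and not a bound site.
su(w[a]): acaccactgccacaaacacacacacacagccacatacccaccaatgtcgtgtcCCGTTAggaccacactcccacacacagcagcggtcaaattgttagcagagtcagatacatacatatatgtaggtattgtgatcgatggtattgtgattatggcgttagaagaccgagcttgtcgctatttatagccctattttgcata
klar: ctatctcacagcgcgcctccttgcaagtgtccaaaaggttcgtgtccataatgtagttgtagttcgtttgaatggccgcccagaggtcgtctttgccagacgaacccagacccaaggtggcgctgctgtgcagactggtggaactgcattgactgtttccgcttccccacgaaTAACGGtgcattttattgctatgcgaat
CG42514: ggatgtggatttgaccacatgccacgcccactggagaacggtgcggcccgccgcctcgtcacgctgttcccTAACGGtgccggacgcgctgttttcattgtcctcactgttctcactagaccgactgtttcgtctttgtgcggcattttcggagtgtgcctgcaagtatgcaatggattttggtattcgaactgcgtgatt
Wdr62: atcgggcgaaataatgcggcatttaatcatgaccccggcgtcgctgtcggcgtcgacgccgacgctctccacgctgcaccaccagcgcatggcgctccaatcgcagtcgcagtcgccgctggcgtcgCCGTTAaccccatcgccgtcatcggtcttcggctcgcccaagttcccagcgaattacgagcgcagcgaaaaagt

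The second set shows narrow peaks of 93 or 94 bases called in every ovary library but in none of the OSC libraries, each printed whole from its first to its last base, with the bases more than 36 from each end in capitals. They are shown because the highest fold enrichments among all coding-exon regions, at trx and Dhc36C, lay in such short intervals, and because the 4 had the same first and last base in every ovary library. They lie in trx at chr3R:14274577-14274670, Dhc36C at chr2L:17516559-17516651, Ptp69D at chr3L:12740296-12740388 and tey at chr3L:19651195-19651287. The summits in Ptp69D and tey lay 13 and 7 bases from the edge of the coding exon. Their printed intervals run past that exon, and the capitals in them lie mostly outside it.
trx: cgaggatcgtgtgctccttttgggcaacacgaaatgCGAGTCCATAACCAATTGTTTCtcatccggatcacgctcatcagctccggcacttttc
Dhc36C: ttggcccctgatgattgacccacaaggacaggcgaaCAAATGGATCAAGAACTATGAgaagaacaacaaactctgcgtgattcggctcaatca
Ptp69D: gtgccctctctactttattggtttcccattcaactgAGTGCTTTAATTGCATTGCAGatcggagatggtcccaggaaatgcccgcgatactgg
tey: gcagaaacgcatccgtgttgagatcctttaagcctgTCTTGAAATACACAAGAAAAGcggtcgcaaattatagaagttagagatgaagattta

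The third set shows summits of regions found in OSCs only, with the bases more than 40 from each end of the window, which hold the summit, in capitals. The summits in ncm (chr2L:18444693-18444793) and dikar (chr3L:6739696-6739796) were found in all 4 OSC libraries. At ncm the authors' list called on the pooled vas-GFP replicates also held a peak, with a fold of 2.31. The summit in CG14082 (chr3L:19107480-19107580) was found in replicate 1 of each OSC genotype alone, as most coding-exon regions were, and was chosen after its values were seen.
ncm: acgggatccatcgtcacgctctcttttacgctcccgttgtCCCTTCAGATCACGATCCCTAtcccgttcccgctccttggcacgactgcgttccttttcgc
dikar: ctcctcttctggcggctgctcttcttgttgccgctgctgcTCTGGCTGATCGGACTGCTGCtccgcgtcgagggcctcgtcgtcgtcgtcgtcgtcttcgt
CG14082: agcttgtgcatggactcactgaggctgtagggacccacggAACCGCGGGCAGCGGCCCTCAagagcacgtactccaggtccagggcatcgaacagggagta

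Replicate 1 of both OSC genotypes stood apart from the other 7 libraries. Replicates are numbered by the titles of the samples. The peak names inside the lists of OSC replicate 2 carry other replicate numbers, which differ between the genotypes, so that nothing says that libraries of one number belong together. The authors' lists held 59420 and 36659 peaks for replicate 1 of wild-type and Δl(3)mbt OSCs, 22037 and 27067 for replicate 2, and 16588 to 24890 for the ovaries. Median local background at the peaks was recovered from the lists, and depends on the depth of a library and on the peaks called in it. It was 21.4 and 21.8 in the replicate 1 OSC libraries, 12.3 and 15.7 in replicate 2, and 4.68 to 10.7 in the ovaries. Results are therefore given with and without both replicate 1 OSC libraries, an alternative chosen after seeing the data. With these libraries left out and the other 7 merged anew, 584 coding-exon regions remained, 2.09% of 27957 regions in at least 2 libraries.

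Coding exons held a large share of the peaks in replicate 1 of each OSC genotype and a small share elsewhere. In wild-type OSCs 16302 of the peaks of replicate 1 (27.4%) and 737 of those of replicate 2 (3.34%) had their summit in coding sequence over 1 kb from a TSS. In Δl(3)mbt OSCs the numbers were 6420 (17.5%) and 922 (3.41%). In ovaries they were 318 and 346 in w1118 (1.28% and 1.49%) and 353, 470 and 464 in vas-GFP (1.56%, 2.34% and 2.80%). The replicates of one OSC genotype thus differed more than OSC replicate 2 did from the ovaries. The median GC content around the summits of these coding peaks was 57.2%, 57.7%, 58.2% and 56.7% in the OSC libraries and 50.2% to 56.7% in the ovaries. Over all peaks it was 53.7% and 50.2% in the replicate 1 OSC libraries and 43.3% to 45.3% in the other 7. It was also higher there at distal noncoding peaks (51.7% and 47.8%, against 42.8% to 45.8%) and at promoter peaks (52.7% and 48.3%, against 43.8% to 44.8%). The GC content of coding peaks alone did not separate replicate 1 from replicate 2 of the OSCs. The part of GC content in the share of coding peaks was not tested.

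**Figure D1:**
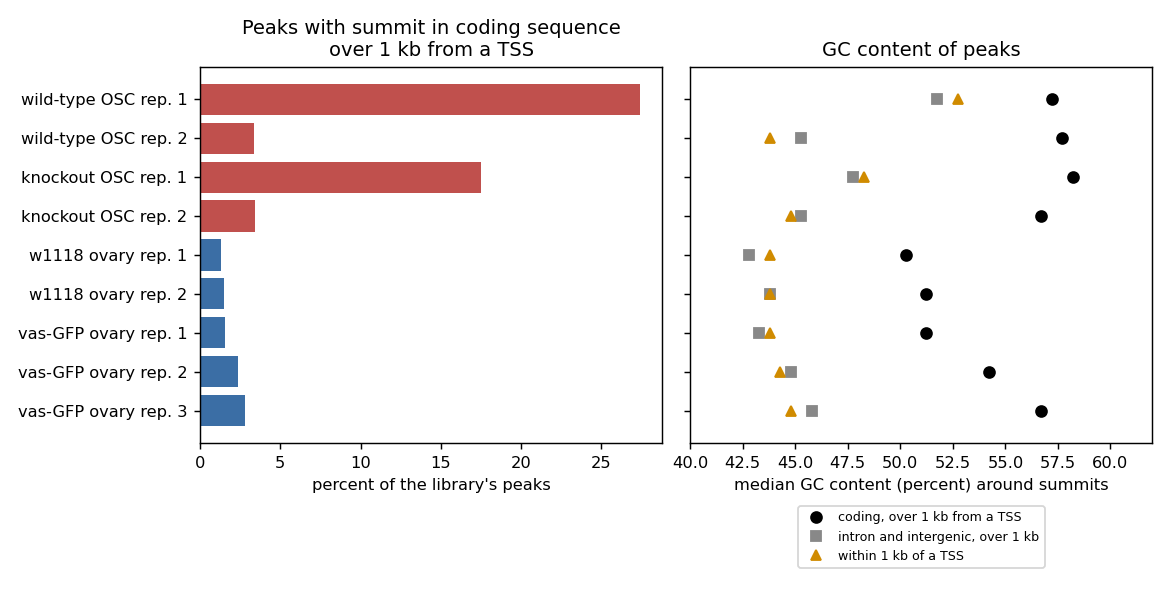
Left, percent of the peaks of each library (bars) whose summit lay in coding sequence over 1 kb from a TSS, for OSC (red) and ovary (blue) libraries. Right, median GC content in percent within 100 bases of the summits of coding peaks (circles), distal intron and intergenic peaks (squares) and promoter peaks (triangles). The replicate 1 OSC libraries reached 27.4% and 17.5% coding peaks against 1.28% to 3.41% in the other libraries, and coding peaks had the highest median GC content in every library.

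The same libraries determined which regions qualified. Of the 5168 coding-exon regions, 4981 (96.4%) had a peak in wild-type replicate 1 and 4566 (88.4%) in Δl(3)mbt replicate 1, against 660 (12.8%) and 768 (14.9%) in replicate 2. The ovaries held 296 and 315 of them in w1118 and 311, 407 and 402 in vas-GFP, or 5.73% to 7.88%. The mean over libraries was 53.1% ± 45.5 (SD, n = 4) in OSCs and 6.70% ± 1.04 (SD, n = 5) in ovaries. The difference was 46.4 percentage points, and −1.75 without both replicate 1 OSC libraries. These percentages are a description with no test, since a peak in a library helps a region to qualify.

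Distal intron and intergenic regions served as the yardstick for distal sites of the same library. Of 13211 such regions, 62.5% and 61.6% had a peak in replicate 1 of the OSC genotypes, 39.5% and 49.6% in replicate 2, and 24.5% to 45.9% in the ovaries. The percentage of coding-exon regions divided by that of the distal noncoding regions was 1.54 and 1.43 in replicate 1, 0.323 and 0.300 in replicate 2, 0.125 and 0.139 in w1118 and 0.140, 0.215 and 0.318 in vas-GFP ovaries. On the log2 scale the mean of the OSC libraries was 1.96 above that of the ovaries, and the difference was −0.060 without both replicate 1 OSC libraries. This too is a description, since the rule used the same peaks. Among regions with 55% to 65% GC, another alternative chosen after seeing the data, it was 1.75 over 3506 coding and 1424 distal noncoding regions. There the replicate 1 ratios were 1.03 and 1.10, those of replicate 2 were 0.368 and 0.349, and those of the ovaries 0.131 to 0.328.

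Coding-exon regions were weak. Fold enrichment is the pileup of insertions at a summit over the local background of the same library, and the authors did not scale it between libraries. In each region it was read at the strongest summit of each library, and these summits can lie at different sites. The median fold over the coding-exon regions with a peak was 2.61 and 2.52 in wild-type and 2.12 and 2.42 in Δl(3)mbt OSCs. It was 3.91 and 4.30 for w1118 and 4.21, 3.62 and 3.75 for vas-GFP ovaries. For distal noncoding regions it was 2.69 and 3.40, 2.63 and 3.39, 4.56 and 4.77, and 4.85, 4.82 and 5.00. Coding-exon regions had the lower median in 9 of 9 libraries, by a mean of 0.30 on the log2 scale (log2 difference −0.30, two-sided exact sign permutation p = 0.00391, the smallest possible). The difference ranged from −0.044 in wild-type OSC replicate 1 to −0.49 in Δl(3)mbt replicate 2. It was −0.22 in the mean without both replicate 1 OSC libraries (exact sign permutation p = 0.0156, the smallest possible) and −0.39 among regions with 55% to 65% GC (exact sign permutation p = 0.00391). It was lost when each list was held to peaks with a −log10 q of at least 10 (log2 difference −0.0032, exact sign permutation p = 0.965), a limit that also removes weak peaks from both classes. Fold was read only where a peak was called, and the rule used the same peaks. These p-values thus cover only the spread between libraries over a shared set of regions. The highest fold at a coding-exon region was 35.5, in vas-GFP replicate 1, and the highest in an OSC library was 15.3, in wild-type replicate 1.

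Per megabase of sequence, coding exons held 363 regions over 14.2 Mb, and distal introns and intergenic sequence held 155 over 85.5 Mb, a ratio of 2.35. Without both replicate 1 OSC libraries the ratio was 0.369. It was also below 1 without wild-type replicate 1 alone (0.708) or without Δl(3)mbt replicate 1 alone (0.924). Within single libraries the ratio of the densities of peaks was 5.43 and 3.82 in the replicate 1 OSC libraries, 0.716 and 0.701 in replicate 2, and 0.272 to 0.757 in the ovaries.

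A coding peak of moderate strength in wild-type OSC replicate 1 was seldom found in replicate 2. Of the coding peaks with a fold of 2 to 2.5 in replicate 1, 2.36% overlapped a peak of replicate 2, against 12% of distal noncoding and 21.7% of promoter peaks of the same strength. At a fold of 3 to 4 the percentages were 13.2%, 67.1% and 74.0%, and at a fold of 4 to 6 they were 46.0%, 95.9% and 97.5%. All 32 coding peaks with a fold over 6 were found. Coding peaks with a fold of 3 to 4 in wild-type replicate 1 were found in Δl(3)mbt replicate 1 at 74.8%, although the genotype differed. In the other direction, 93.9% of the coding peaks of wild-type replicate 2 overlapped a peak of replicate 1, which covered 14.5 Mb against 4.75 Mb. Between the w1118 replicates 66.3% of the coding peaks with a fold of 3 to 4 were found again, and all 78 with a fold over 6. The other pairs of replicates varied at a fold of 3 to 4. From Δl(3)mbt replicate 1 to replicate 2, 72.2% of coding and 96.8% of distal noncoding peaks were found. Among the vas-GFP libraries 60.3% of coding peaks were found from replicate 1 to 2, 21.3% from 2 to 3 and 19.8% from 3 to 1, against 48.5%, 33.2% and 73.8% of distal noncoding peaks. At this fold, low recovery of coding peaks was thus seen in 1 OSC pair and in 2 vas-GFP pairs. Weaker coding peaks of Δl(3)mbt replicate 1 were also seldom found in replicate 2. At a fold of 2 to 2.5 the percentages were 8.15% of coding and 39.3% of distal noncoding peaks. Over all folds they were 10.0% and 61.2%.

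**Figure D2:**
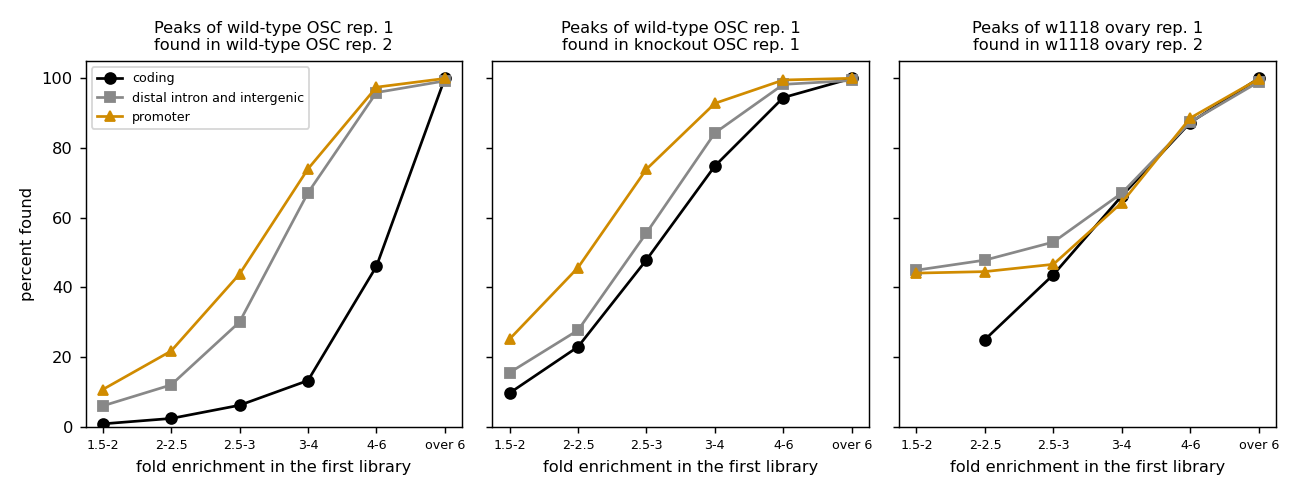
Percent of the peaks of one library that overlapped a peak of another (y axis) by fold enrichment in the first library (x axis, classes of fold), for coding (circles), distal intron and intergenic (squares) and promoter peaks (triangles). From wild-type OSC replicate 1 to replicate 2 coding peaks with a fold of 3 to 4 were found at 13.2% against 67.1% for distal noncoding peaks. For w1118, the only ovary strain plotted, the value was 66.3%, and among the vas-GFP libraries, which are not plotted, it was 19.8% to 60.3%.

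The frequency of recovery in wild-type replicate 2 also moved with base composition. Among distal noncoding peaks of replicate 1 with a fold of 2.5 to 4, 93.6% of those with 30% to 40% GC were found in replicate 2 and 10.4% of those with 60% to 75% GC. Among coding peaks of that strength, 29.4% were found at 45% to 50% GC and 9.23% at 60% to 75% GC. Distal noncoding peaks were recovered more often than coding peaks at 45% to 50% GC (61.1%), at 50% to 55% (33.6% against 8.63%) and at 55% to 60% (14.3% against 6.62%), and the percentages came close only at 60% to 75%. Between the Δl(3)mbt replicates they stayed apart there, with 56.0% of distal noncoding and 24.3% of coding peaks.

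Coding-exon regions lay in GC-rich stretches of coding sequence. Their median GC content within 100 bases of the summit was 58.7%, against 52.2% for coding sequence over 1 kb from a TSS and 46.3% for both distal noncoding and promoter regions. They numbered 35.8 per Mb of distal coding sequence with under 40% GC, 74.9 at 45% to 50%, 576 at 55% to 60%, 1152 at 60% to 65% and 1818 above 65%. Most of these were regions found in the 2 replicate 1 OSC libraries alone, which went from 0 per Mb below 40% GC to 1187 above 65%. Regions in at least 2 of the other 7 libraries went from 33.8 per Mb to 187 between the same classes, with 31.5 to 36.0 in every class up to 55%. Regions found in ovaries only went the other way, from 26.6 per Mb below 40% GC to 0 above 65%.

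Motifs were counted on both strands within 100 bases of each summit. CCGTTA, the Ovo motif, lay in 2.38% of coding-exon windows, 3.47% of distal noncoding windows, 6.17% of promoter windows and 2.94% of windows across distal coding sequence. GAGAG, the core bound by GAGA factor, lay in 24.0%, 29.8%, 29.7% and 23.3%. CACACA, a CA-repeat element, lay in 8.46%, 27.4%, 20.1% and 7.65%, and TGACTCA, the AP-1 site, in 1.2%, 3.82%, 2.40% and 1.19%. A dinucleotide repeat of at least 6 units, which can itself contain CACACA or GAGAG, was present in 0.193% of the coding-exon windows and in 6.82% of distal noncoding windows. Coding-exon windows were thus close to other coding sequence and below distal noncoding windows for each of these patterns. Among the 26 regions with a peak in all 9 libraries, 4 held CCGTTA (15.4%) and 9 held GAGAG (34.6%). These are few windows, and no test of either share was run. None of the 57 regions in all 5 ovary and no OSC libraries held CCGTTA, too few windows to tell this from the 2.94% of distal coding sequence. Shares over all regions of the same libraries are not given for either set.

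Sharing between OSCs and ovaries was low. A peak in at least 1 OSC and 1 ovary library was present at 630 coding-exon regions (12.2%), against 46.3% of all regions. OSC libraries alone accounted for 4399 (85.1%), against 39.0% of all regions, and ovary libraries alone for 139 (2.69%), against 14.7%. The 2 replicate 1 OSC libraries and no other library accounted for 3448 (66.7%), against 19.0% of all regions and 12.2% of distal noncoding regions. The reverse combination, both replicate 2 and neither replicate 1 OSC library, was found at 0 of 5168 regions (95% Wilson upper limit 0.0743%), against 2.42%. At least 3 libraries shared 1291 regions (25.0%, against 69.1%), and at least 6 shared 129 (2.50%, against 34.3%). In at least 2 of the 7 libraries other than replicate 1 OSC there were 659 (12.8%, against 67.7%). These intervals and percentages cover the counting of regions only, and neighbouring regions are not independent.

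**Figure D3:**
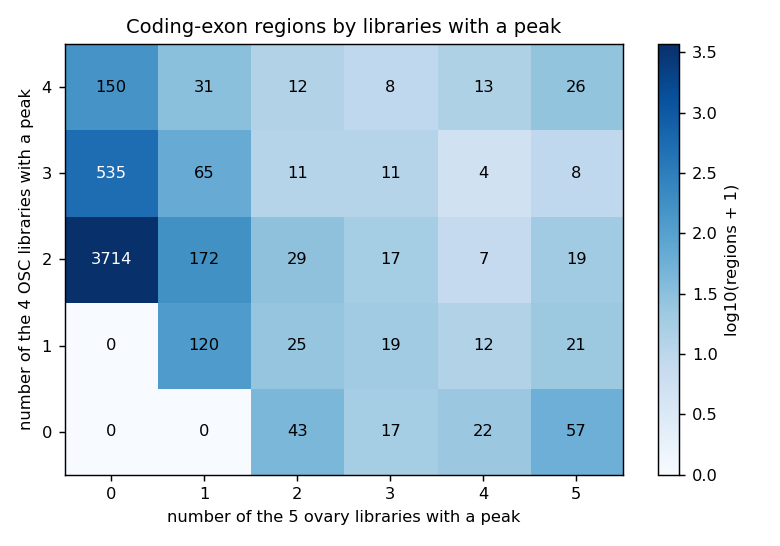
Number of coding-exon regions (printed in each cell, shaded by log10 of the number plus 1) by how many of the 4 OSC libraries (y axis) and of the 5 ovary libraries (x axis) had a peak. The cell for 2 OSC and 0 ovary libraries held 3714 of the 5168 regions, the cell for all 9 libraries held 26, and that for 5 ovary and 0 OSC libraries held 57.

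Without both replicate 1 OSC libraries the balance of materials changed. Of the 584 regions, 171 (29.3%, against 59.5% of all 27957 regions) had a peak in both materials, 140 (24.0%, against 13.5%) in OSCs only and 273 (46.7%, against 27.0%) in ovaries only. All 7 libraries shared 23, against 31.7% of all regions. Their median GC content was 53.2%. Within the ovaries, 22 coding-exon regions (0.426%, against 3.16% of all regions) had a peak in both w1118 and no vas-GFP library. Another 14 (0.271%, against 0.341%) had one in all 3 vas-GFP and no w1118 library. The authors' merged lists, called on pooled replicates of a group, covered the summits of 91.6% of the 5168 regions in wild-type OSCs, 52.5% in Δl(3)mbt OSCs, 8.30% in vas-GFP and 5.57% in w1118 ovaries. The merged wild-type list covered 94.2% of the regions found in the replicate 1 OSC libraries alone.

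The 26 regions with a peak in all 9 libraries (0.503%, against 20.1% of all regions) were in 26 genes. They comprised genes of transcription and chromatin (crol, otp, sim, NK7.1, G9a), of signalling and adhesion (InR, Dscam3, Tab2), of the cytoskeleton and polarity (toc, RhoGEF3, scrib, Map205, klar, Wdr62, bif), of RNA processing and protein turnover (su(w[a]), Doa, Ubr1), and Orai, scyl, Sdb, CG11050, CG31869, CG42514, CG11905 and CG10311. Their median width was 583 bases, and 34.6% of the summits lay in the first coding exon of the gene.

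The highest median fold was in su(w[a]), which encodes a regulator of splicing. Its fold was 7.25 and 4.43 in wild-type and 5.73 and 7.26 in Δl(3)mbt OSCs, against 19.6 and 15.6 in w1118 and 13.9, 16.0 and 15.3 in vas-GFP ovaries. Every ovary library was above every OSC library. The summit lay in a coding exon of 528 bases, 4669 bases from the nearest TSS. At toc, which encodes the microtubule-associated protein Toucan, the folds were 13.3 and 7.78, 8.39 and 11.1, 12.8 and 14.1, and 14.7, 13.6 and 12 in the same order, and the ranges of both materials overlapped. The toc region (chr2L:3124017-3125044) lay in coding exon 3 of 11, and was called in every library with a GC content of 65.2%.

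The homeobox gene otp on chromosome 2R held the largest −log10 q of all coding-exon regions, 346.5 in wild-type replicate 1. Its folds were 15.3 and 10.1 in wild-type and 9.17 and 11.9 in Δl(3)mbt OSCs, against 16.2 and 14.1 in w1118 and 16.5, 11.8 and 10.3 in vas-GFP ovaries. At RhoGEF3 they were 11.6 and 9.07, 9.12 and 10.8, 12.9 and 14.1, and 13.6, 12.9 and 9.04. Both regions were of similar height throughout, with overlapping ranges in OSCs and ovaries. CG11905 (OSC folds of 8.26 to 10.7, ovary folds of 11.5 to 14.0) and klar, which encodes a nuclear envelope protein of nuclear migration (6.79 to 8.22 and 10.2 to 12.8), had every ovary fold above every OSC fold. At klar the summits of the libraries spread over 366 bases, so its folds may belong to different sites. Wdr62, a spindle-pole protein, had OSC folds of 3.48, 2.40, 2.62 and 2.06 and ovary folds of 8.62, 8.69, 3.11, 6.51 and 4.38, and CG42514 had OSC folds of 4.27 to 6.21 and ovary folds of 4.80 to 8.99.

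The direction of the difference in height varied between regions. At Doa, which encodes a kinase of splicing factors, the folds were 7.75 and 6.59 in wild-type and 7.17 and 7.80 in Δl(3)mbt OSCs against 3.36 and 2.29 in w1118 and 4.49, 2.47 and 3.01 in vas-GFP ovaries. Every OSC library was above every ovary library although fold enrichment tended to be higher in ovaries. The summits of the libraries at Doa spread over 599 bases, so these folds may belong to different sites. CG8888, on chromosome 2R, had folds of 13.4, 9.37, 11.9 and 11.3 in OSCs and a single ovary peak of 3.13, in vas-GFP replicate 1. At Dscam3, which encodes an immunoglobulin-domain adhesion protein, the OSC folds were 9.59, 6.38, 8.16 and 8.35 and the ovary folds 21.7, 15.8, 20.2, 14.7 and 4.64, the last in vas-GFP replicate 3 with 30 ovaries, so that the materials overlapped through 1 library. These regions were named for their large −log10 q, and heights were compared without scaling between libraries.

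**Figure D4:**
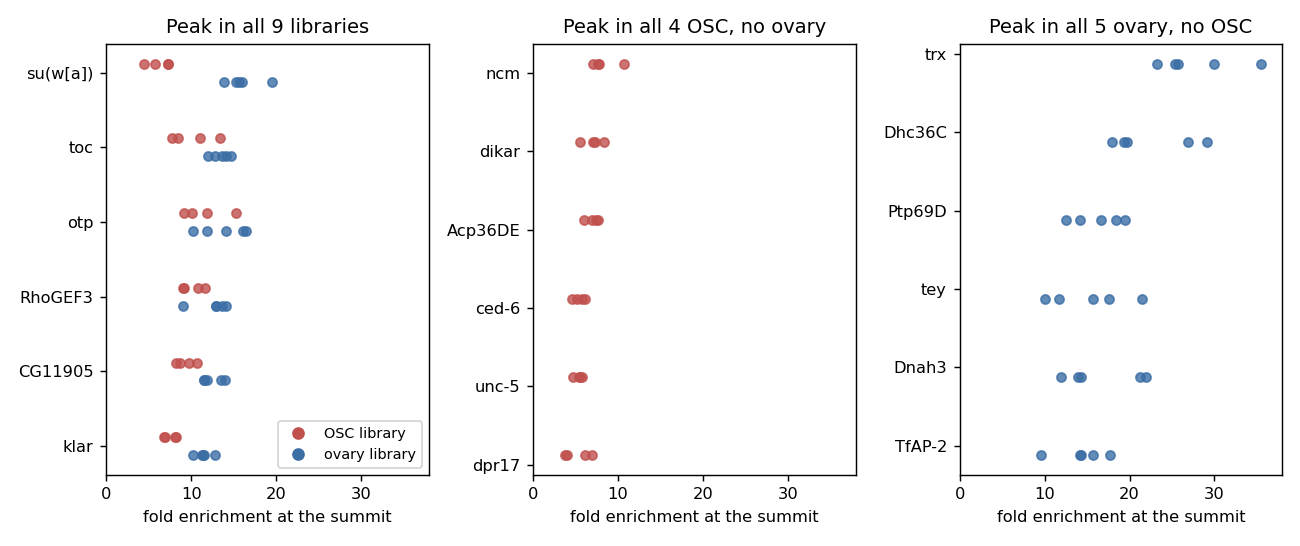
Fold enrichment at the summit (x axis) in each OSC (red) and ovary (blue) library for the 6 coding-exon regions with the highest median fold among those found in all 9 libraries (left), in all 4 OSC and no ovary libraries (middle) and in all 5 ovary and no OSC libraries (right). The summit is the strongest of each library in the region, and at klar these summits spread over 366 bases. Ovary-only regions such as trx reached 35.5, whereas the highest fold of an OSC-only region shown was 10.7, at ncm.

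A peak in all 4 OSC and no ovary library was present at 150 regions (2.9%, against 7.06% of all regions). The highest median folds were at ncm, which encodes a spliceosome and exon junction complex factor (10.7 and 7.68 in wild-type, 7.75 and 7.11 in Δl(3)mbt OSCs), and at dikar (8.36 and 5.50, 7.04 and 7.29). Both genotypes overlapped at each. At ncm the authors' merged vas-GFP list held a peak with a fold of 2.31, although no single ovary library did. Acp36DE, a seminal fluid protein that acts in sperm storage, held a region with folds of 6.90 and 5.96 in wild-type and 7.38 and 7.61 in Δl(3)mbt OSCs, so that both knockout libraries were above both wild-type ones. The others were ced-6, an adaptor in the engulfment of dead cells (4.64 to 6.12), unc-5, a netrin receptor (4.68 to 5.78), and dpr17, an immunoglobulin-domain surface protein (3.83 to 7.0). The 150 regions had a median GC content of 58.7% and a median width of 631 bases. Their summits lay a median of 150 bases from the nearest edge of the coding exon.

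The regions found in exactly the 2 replicate 1 OSC libraries had a median strongest fold of 2.58 and none above 4.92. The largest −log10 q reached among them was 35.1, at CG14082, with folds of 4.92 in wild-type and 2.58 in Δl(3)mbt replicate 1. CG31191 (4.87 and 2.27) and fusl (4.82 and 3.00) were also among the largest. These 3 regions, chosen after their values were seen, had 63.7% to 65.7% GC, and each had the higher fold in wild-type replicate 1.

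Regions of the ovary alone were few and strong. A peak in all 5 ovary and no OSC library was present at 57 coding-exon regions (1.10%, against 4.34% of all regions), with a median strongest fold of 10.2 and a median GC content of 46.8%. At trx, which encodes the histone methyltransferase Trithorax, the folds were 25.7 and 25.3 in w1118 and 35.5, 29.9 and 23.2 in vas-GFP ovaries. The value of 35.5 rested on a pileup of 226 at the summit (95% Poisson interval of the fold 31.0 to 40.4, counting error only). The trx peak lay in coding exon 2 of 7, an exon of 1177 bases, 9814 bases from the nearest TSS.

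Dhc36C, an axonemal dynein heavy chain, held a region with folds of 18.0 and 19.7 in w1118 and 26.9, 29.1 and 19.3 in vas-GFP ovaries. In Ptp69D, a receptor tyrosine phosphatase of axon guidance, they were 12.5 and 16.6, and 18.4, 19.5 and 14.2. In tey, a gene of muscle identity, they were 10.1 and 11.7, and 21.4, 15.7 and 17.6. The strains overlapped at Dhc36C and Ptp69D, whereas at tey all 3 vas-GFP libraries were above both w1118 libraries. Dnah3, another axonemal dynein heavy chain (12 to 21.9), and TfAP-2, a transcription factor (9.53 to 17.7), completed the 6 highest.

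Most of these ovary-only regions were short. Of the 57, 37 were 93 to 95 bases wide, and in 29 of these every library gave the same first and last base. None of the 150 OSC-only regions and none of the 26 regions in all 9 libraries was that narrow, and of all 5168 coding-exon regions 73 were (1.41%). The 6 highest ovary-only regions named above all belonged to the narrow group, whose folds ranged from 3.50 to 35.5 and whose median GC content was 45.3%. The pattern was not particular to coding exons. Among regions in all 5 ovary and no OSC libraries, 399 of 980 distal noncoding (40.7%), 32 of 53 3′ UTR (60.4%) and 103 of 626 promoter regions (16.5%) had this width. The same held for single libraries. Coding peaks of 93 to 95 bases were 11.5 and 11.1 times as frequent as the mean of the neighbouring widths (90 to 92 and 96 to 98 bases) in w1118 and 22.5, 7.40 and 5.00 times in vas-GFP ovaries, but 0.894 to 0.963 times in the OSC libraries. What sets this width was not tested.

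**Figure D5:**
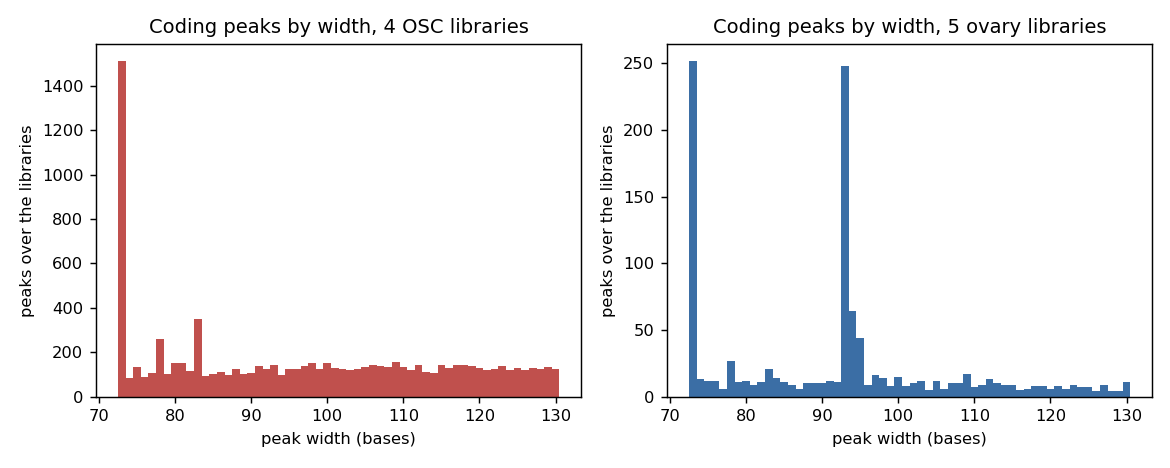
Number of coding peaks over 1 kb from a TSS (y axis) by peak width in bases (x axis), summed over the 4 OSC libraries (left) and the 5 ovary libraries (right). Both show the smallest width of 73 bases, and the ovary libraries alone show a further column of peaks at 93 to 95 bases, where the frequency was 5.00 to 22.5 times that of neighbouring widths in each ovary library.

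The other 20 ovary-only regions were wider, with a median width of 262.5 bases and a median GC content of 50.2%. They were chosen after their values were seen. The highest were in CG1801, with folds of 10.1, 10.3, 8.20, 11.1 and 12.3 in the 5 ovary libraries, and in Cals, which encodes the adhesion protein calsyntenin, with 7.66, 7.52, 13.9, 15.1 and 10.0. They were followed by Sur, a subunit of potassium channels (5.47 to 10.3), Ac3, an adenylyl cyclase (2.93 to 8.24), nej, the histone acetyltransferase CBP (5.47 to 8.60), and mbc, an activator of Rac (3.91 to 7.22). Among the rest were Dcr-2, the Dicer of the siRNA pathway, Dad, an inhibitor of Dpp signalling, and Inx3, a gap junction protein.

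The libraries of Δl(3)mbt and wild-type OSCs were compared by the presence of peaks, since 2 against 2 libraries cannot pass an exact test. At 23 coding-exon regions each Δl(3)mbt library but no wild-type OSC library carried a peak (0.445%, against 3.32% of all regions), and at 137 the reverse held (2.65%, against 1.57%). These counts turned with single libraries. Without wild-type replicate 1 they were 396 and 12, without Δl(3)mbt replicate 1 they were 8 and 400, and between the replicate 2 libraries alone they were 63 and 35. Shares over all regions are not given for these settings, so the counts describe only their dependence on single libraries. Among 240 coding-exon regions with a peak in all 4 OSC libraries, both Δl(3)mbt folds were above both wild-type folds at 23 (9.58%, against 18.2% of all such regions). They were below both at 52 (21.7%, against 8.14%). Compared within each replicate number, the Δl(3)mbt fold was the higher in both replicates at 28 regions (11.7%, against 42.8% of all such regions) and the lower in both at 92 (38.3%, against 13.7%). It was the higher at 37 of the 240 in replicate 1 (15.4%, against 53.8% of all such regions). In replicate 2 it was the higher at 139 (57.9%, against 75.3%). The share itself differed between the replicates but was below that of all such regions in both.

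The strongest of the regions in Δl(3)mbt alone was in CG33978 on chromosome 4, with folds of 2.79 and 3.14 in Δl(3)mbt OSCs and 9.90, 6.74, 7.97, 6.43 and 5.13 in the 5 ovary libraries. It thus lacked a peak only in the wild-type OSC libraries. CG43332 (2.58 and 3.47), Ziz, a guanine exchange factor (2.53 and 3.39), scrib, a scaffold of epithelial polarity (2.83 and 2.50), and CG44838 (2.64 and 2.63) had no ovary peak. Of the regions in wild-type alone the strongest was in Socs36E, an inhibitor of JAK/STAT signalling, with wild-type OSC folds of 3.43 and 2.51 and ovary folds of 13.8, 15.9, 10.3, 10.2 and 8.77. Its ovary folds were all above its wild-type OSC folds. CG31817 held 2 such regions (2.23 and 5.14, and 2.68 and 3.63). They were followed by Mob2, a partner of NDR kinases (3.33 and 3.53), and sdk, a cell junction protein (2.83 and 3.51), none with an ovary peak. Coding peaks with a fold of 2.5 to 3 in wild-type replicate 1, the range of many of these OSC values, were found in replicate 2 of the same genotype at 6.15%.

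Within genes the summits lay inside exons rather than at their edges. The median exon that held a summit was 820 bases long, against 887 for distal coding sequence at large, and the median distance to the nearest exon edge was 203 bases against 173. Within 50 bases of an edge lay 8.82% of the summits, against 21.1% of distal coding sequence, but 23.4% of those in at least 2 of the other 7 libraries and 38.6% of the 57 ovary-only ones. The last coding exon held 33.4% and the first 13.8%. The median distance from the nearest TSS was 3032 bases, and 10.1% were more than 10 kb away. At 224 regions the summit of another library lay within 1 kb of a TSS. The most distant was in rg, a kinase-anchoring protein, 51101 bases from a TSS, with folds of 2.18 and 1.86 in replicate 1 of both OSC genotypes. It was followed by 2 regions in dpy at 50388 and 50035 bases. Just inside the limit of 1 kb, the 520 regions at 1 to 1.2 kb had a median strongest fold of 2.61 and a GC content of 58.2%, and just outside it the 600 coding regions at 0.8 to 1 kb had 2.63 and 58.2%.

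On 2L, 2R, 3L and 3R the share of the regions was close to that of distal coding sequence, whereas X held more and chromosome 4 less. 2L held 917, 2R 894, 3L 998, 3R 1193, X 1132, chromosome 4 held 34 and Y none. X held 21.9% of the regions and 18.6% of the distal coding sequence. Chromosome 4, which is rich in heterochromatin, held 0.658% of them and 1.69% of the sequence, but 2.73% of the regions in at least 2 of the other 7 libraries.

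Coding-exon regions were spread over 2956 of the 8554 genes (34.6%) with at least 0.1 kb of coding sequence over 1 kb from a TSS. In at least 2 of the other 7 libraries, 581 genes (6.79%) held one. The percentage was higher for genes with more of that sequence, from 16.9% of genes with 0.1 to 1 kb up to 85.7% of genes with 8 kb or more, while regions per kb stayed between 0.292 and 0.379. With each region given to the gene of the longest coding sequence at its summit, 2955 genes were counted, of which 1820 held 1 region, 1012 held 2 to 4 and 123 held 5 or more.

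The genes with most regions encode very large proteins. dpy, a giant protein of the extracellular matrix, held 18 over 69.2 kb of distal coding sequence, with folds of 1.67 to 3.72. Of these 13 were in the replicate 1 OSC libraries alone, and none had an ovary peak. sls, the titin of fly muscle, held 17 (1.73 to 3.97), of which 7 were in the replicate 1 OSC libraries alone, 2 were in at least 2 of the other 7 libraries and 1 had an ovary peak. Msp300, a nesprin that anchors nuclei, held 14 over 60.8 kb, 12 of them in the replicate 1 OSC libraries alone. CG3339 and Ten-a, a teneurin of synaptic adhesion, held 14 each, with 9 and 13 in the replicate 1 OSC libraries alone and folds of 1.59 to 2.89 and 1.96 to 3.89. The 14 regions of Ten-a lay in 9.91 kb and those of CG3339 in 12.4 kb, a denser spacing than in dpy, sls and Msp300.

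Genes of 8 lists were counted against the 34.6% of all genes that held a coding-exon region and the 6.79% that held one in at least 2 of the other 7 libraries. Since long genes held more, regions per kb are given as well. The share with a region in at least 2 of the other 7 libraries also went with length. It was 2.45% of genes with 0.1 to 1 kb of distal coding sequence, 11.2% with 2 to 4 kb and 23.5% with 4 to 8 kb. The median gene had 2.675 kb among the transcription factors and 3.76 kb among the chromatin genes below. Transcription factors of ovarian somatic cells had the highest density, 0.740 per kb, with a region in 24 of 30 genes (80.0%), of which 8 (26.7% of the list) held one in at least 2 of the other 7 libraries (EcR, Eip75B, Hr3, Hr4, br, chinmo, eya and pnr). These include nuclear receptors and effectors of the ecdysone response. Hr3 had folds of 3.40 and 3.63 in wild-type and 3.67 and 4.11 in Δl(3)mbt OSCs and no ovary peak. Eip75B had 5.99, 2.72, 4.49 and 3.31 in OSCs and 2.97 in vas-GFP replicate 3. pnr, a GATA factor, had 4.23 in wild-type replicate 1, 3.05 and 2.66 in Δl(3)mbt OSCs and 4.11 in vas-GFP replicate 3. slbo, the C/EBP factor of border cells, had 3.56 and 3.11 in the replicate 1 OSC libraries and 3.35 in vas-GFP replicate 3.

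Signalling genes had 0.441 regions per kb and a region in 20 of 37 genes (54.1%). InR and hop held one in at least 2 of the other 7 libraries (5.41% of the genes, close to all genes). InR, the insulin receptor, had folds of 7.15, 5.97, 5.95 and 7.12 in OSCs and 6.22, 7.79, 6.76, 5.86 and 5.50 in ovaries, ranges that overlapped. hop, the JAK kinase, had a fold of 1.88 in wild-type replicate 1 and of 2.47, 4.45, 5.36, 5.33 and 4.03 in the ovaries, all above the OSC value. Mer and Stat92E each had peaks in both replicate 1 OSC libraries (3.15 and 1.98, and 3.02 and 2.29) and in 1 ovary library (3.86 and 3.29).

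Adhesion and matrix genes had a region in 24 of 33 genes (72.7%) and 0.386 per kb, and 6 genes (18.2%) held one in at least 2 of the other 7 libraries. Of all genes with 4 to 8 kb of distal coding sequence 23.5% did, and the median gene of this list had 5.47 kb. Nrg, the neuroglian of septate junctions, had folds of 4.32, 3.12, 3.89 and 3.77 in OSCs and 4.64 in vas-GFP replicate 3. trol, the perlecan of basement membranes, had 4.42 and 4.47 in wild-type and 2.01 and 3.31 in Δl(3)mbt OSCs, so that both wild-type libraries were above both knockout ones, and no ovary peak. Ten-a (3.57 and 2.74) and Cad88C (1.79 in wild-type replicate 1 and 4.22 in vas-GFP replicate 1) each rested on 2 libraries. Genes of the cytoskeleton and polarity had a region in 29 of 32 genes (90.6%) and 0.360 per kb, and 8 genes (25.0%) held one in at least 2 of the other 7 libraries. This share was near the 23.5% of all genes with 4 to 8 kb, and the median gene of this list had 6.355 kb. A second scrib region had folds of 6.26 and 4.23 in wild-type and 9.45 and 10.9 in Δl(3)mbt OSCs, both knockout libraries above both wild-type ones, and of 3.17 to 6.04 in the ovaries. cher, the filamin of ring canals, had 3.31, 2.44 and 2.1 in OSCs and 3.65 to 7.52 in all 5 ovary libraries, at summits spread over 573 bases. In Ank and Ank2, which encode ankyrins, the highest regions were narrow ones of the ovary alone (6.77 to 10.9 in 5 libraries and 4.82 to 8.13 in 3).

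Chromatin genes had fewer per kb, 0.226, but a region in 18 of 43 genes (41.9%). Of these genes 8 (18.6% of the list) held one in at least 2 of the other 7 libraries. Beside trx and nej, the highest were 2 ovary-only regions in Nipped-A, a subunit of acetyltransferase complexes, with folds of 3.78 to 6.72 in 3 libraries and 5.21 and 4.27 in the w1118 libraries. Germline and oogenesis genes had 0.253 per kb and a region in 11 of 33 genes (33.3%). Of these genes 2 (6.06% of the list) held one in at least 2 of the other 7 libraries. del, a factor of germline piRNA clusters, had a narrow ovary-only region with folds of 5.12, 5.61, 8.30, 7.86 and 7.82. BicC (3.43 and 2.53) and egl (3.42 and 2.43), regulators of mRNA in the oocyte, had peaks in the replicate 1 OSC libraries, and BicC also one of 3.39 in vas-GFP replicate 3. bru1, a translational repressor, had 3.43, 2.79 and 2.26 in 3 OSC libraries.

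Neuron and muscle genes had 0.224 regions per kb and a region in 9 of 21 genes (42.9%). Only sls (4.76% of the list) held one in at least 2 of the other 7 libraries. The highest regions of sls (3.97 and 3.05), para, a sodium channel (3.57 and 2.58), futsch, a microtubule-associated protein (2.98 and 2.58), and brp, a protein of the synaptic active zone (4.02 and 2.38), all had peaks in both replicate 1 OSC libraries and in no replicate 2 OSC library. futsch and brp also had a peak in vas-GFP replicate 3 (4.16 and 2.93), at futsch above both OSC folds. Of 7 yolk and eggshell genes 3 held a region (0.432 per kb). In at least 2 of the other 7 libraries, 2 genes (28.6% of the list) held one. ndl, an eggshell protease, had a narrow ovary-only region with folds of 9.12 and 7.40 in w1118 and 13.8, 13.1 and 4.64 in vas-GFP ovaries. Yp3, a yolk protein, had 2.91 and 2.32 in the replicate 1 OSC libraries, and yellow-g had 2.25 and 1.82 there and 1.96 to 3.58 in 4 ovary libraries.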

How the data were processed

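The authors made the 9 ATAC-seq libraries with the omni-ATAC protocol. Per the labels and the study's methods, reads were trimmed with cutadapt 1.18, aligned to dm6 with BWA mem, marked for duplicates with Picard 2.9.0, filtered with SAMtools 1.9, and peaks were called with MACS2 2.1.1.20160309 in each library and on the merged replicates, with reads shifted and extended around the insertion and no control library stated. The deposited lists give a fold enrichment (a ratio of pileup to local background of the same library) and the −log10 of the p and q values at each summit. These depend on the depth of the library, and weak sites of shallow libraries fall below the threshold. The authors' deposited table of Δl(3)mbt against wild-type OSCs (log2 fold and FDR, DiffBind 3.0.15) and the display score of the deposited lists were not used.

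Overlapping peaks were merged, and summits were annotated with Ensembl release 115 (18277 genes, 23694 TSSs). Regions in coding sequence of several genes are given by the longest. Pileups were recovered from fold and p within 0.001 for 98.7% to 100.0% of peaks. Differences in fold within libraries were tested by exact sign permutation, over regions that the rule took from the same peaks. The permutation tests planned for the percentages of regions called are not given, since the rule used the same peaks, and scripts were tested on simulated data. Named regions were the 10 with the largest −log10 q, the 6 with the highest median fold in all 9, all ovary or all OSC libraries, up to 5 in each direction between OSC genotypes, the 5 genes with most regions, the 3 regions farthest from a TSS and up to 4 examples per gene list. The regions and the 8 lists were chosen with earlier results of these data known. List genes that could not be matched were not analysed here, and a region among the strongest of the replicate 1 OSC libraries is not reported here. Python 3.11.15, NumPy 2.4.6, pandas 2.3.3, SciPy 1.17.1 and Matplotlib 3.10.9 were used.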

Additional observations from a re-analysis of the deposited data

Results flagged for a closer look

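At RhoGEF3 the fold of vas-GFP replicate 3 was 9.04, below the other 4 ovary libraries, and its gap to the nearest of them was 0.757 of the range of the group. It was the only value past Dixon's 95% limit among 66 groups of values, where chance alone marks about 1 group in 20.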

How the results depend on the processing

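Most counts depended on the replicate 1 OSC libraries and on weak peaks. They are given here without shares over all regions and describe this dependence only. The number of coding-exon regions was 1291 with at least 3 libraries, 400 with a −log10 q of at least 10, 589 with the same number of peaks per library, 584 without both replicate 1 OSC libraries (chosen after seeing the data) and 1306 to 5153 without 1 library, the lowest being without wild-type replicate 1. Regions in both materials then made up 39.5%, 17.8%, 31.4%, 29.3% and 8.94% to 36.8%, and 13.8% over 0.5 kb from a TSS and 8.92% when a peak had to cover the strongest summit. Regions in all 9 libraries numbered 15 over 2 kb and 56 over 0.5 kb from a TSS, 12 with the q limit and 16 with equal numbers of peaks. Regions in all ovary and no OSC libraries numbered 95 without both replicate 1 OSC libraries. Regions in all OSC and no ovary libraries numbered 31 with the q limit, 40 with equal numbers, 81 by the strongest summit and 133 to 450 without 1 library, the highest being without wild-type replicate 2, and 370 without Δl(3)mbt replicate 2.

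The percentage of regions called, OSC minus ovary, was 8.81 with the q limit, 8.34 with equal numbers, −1.75 without both replicate 1 OSC libraries and 31.0 to 60.6 without 1 library. The log2 ratio to distal noncoding regions was −0.0044 with the q limit, 0.11 with equal numbers, −0.060 without both replicate 1 OSC libraries and 0.87 to 2.39 without 1 library. The fold difference was −0.0032 with the q limit, −0.11 with equal numbers (exact sign permutation p = 0.121) and −0.32 to −0.28 without 1 library.

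The density ratio was 0.832 with at least 3 libraries, 2.76 over 2 kb, 2.25 over 0.5 kb, 0.356 with the q limit, 0.495 with equal numbers, 1.8 by the strongest summit, 2.18 for peaks of 100 bases either side of the summit, 0.369 without both replicate 1 OSC libraries and 0.708 to 2.45 without 1 library. Regions in Δl(3)mbt and not wild-type OSCs numbered 3 with at least 3 libraries, 12 over 2 kb, 37 over 0.5 kb, 5 with the q limit, 5 with equal numbers, 73 for peaks of 100 bases, 63 without both replicate 1 OSC libraries and 8 to 396 without 1 library. The reverse numbered 7 with at least 3 libraries, 2 with the q limit, 13 with equal numbers, 35 without both replicate 1 OSC libraries and 12 to 400 without 1 library. Within 50 bases of the summit the motif percentages were 1.10 for CCGTTA, 12.6 for GAGAG, 5.21 for CACACA, 0.542 for TGACTCA and 0 for dinucleotide repeats, since a shorter window holds fewer matches. Except for that, for the larger minimum number of libraries and for the libraries left out, the cause was not tested. Paired by replicate number, an alternative chosen after seeing the data, the Δl(3)mbt fold was the higher in both pairs at 28 regions and the lower at 92, against 23 and 52 unpaired. No test was run on 2 pairs, and counts of peaks present in both libraries of one genotype and neither of the other are the same with the pairing. Where a library has few reads, the lack of a peak does not show closed chromatin.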
